A study of Mus musculus with 24 samples.

Results

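The suprachiasmatic nucleus (SCN) is the small paired nucleus above the optic chiasm that sets circadian time in mammals. The genes described here are 9 neuropeptide precursors that are not the classic marker peptides of its core and shell, namely Sst, Penk, Tac1, Tac2, Trh, Cck, Pmch, Gal and Nmu. They were taken by symbol from a list, out of 18193 genes named on the arrays, and all 9 were found. Where a gene had several probe sets, the 1 with the highest mean was used. Tac1 had a second probe set, which averaged 2.93 on the log2 scale and stayed between 2.70 and 3.37, against 4.04 for the one used, and each other member had 1.

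Each of the 24 arrays held RNA from 1 SCN subregion of C57BL/6 mice, 8 weeks old when purchased and housed singly. All animals had spent 7 days or more in constant dim red light, with no other time cue. The 6 groups of 4 arrays were light-pulsed ventral, light-pulsed central, light-pulsed dorsal, sham ventral, sham central and sham dorsal SCN. Pulsed mice had a 30 min light pulse of the kind that advances the clock, sham mice had the sham procedure, and brains were taken 3.5 h later, whether counted from the start or the end of the treatment being unstated. Subregions were cut by laser from 25 µm stained cryosections, and the sources used here do not say how their borders were set or which arrays share an animal. RNA was amplified and labelled in 2 batches. Values per array are given in the order of the replicate numbers, of which 1 and 2 are from batch A in each group and 3 and 4 from batch B.

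Neuropeptides are cut from larger precursor proteins, packed in dense-core vesicles and act on G protein-coupled receptors, mostly over longer distances and times than fast transmitters. In the SCN, nearly all neurons use GABA and differ in the peptide that they add to it. Precursor mRNA in a piece of tissue does not show which cells release the peptide. Among the 9 precursors, Sst gives somatostatin, an inhibitory peptide, and Penk gives the enkephalins, which act on opioid receptors. Tac1 gives substance P and neurokinin A, and Tac2 gives neurokinin B in the mouse. Trh gives thyrotropin-releasing hormone, Cck gives cholecystokinin, Pmch gives melanin-concentrating hormone, Gal gives galanin and Nmu gives neuromedin U. Several of these peptides are better known from hypothalamic areas next to the SCN, Trh in the paraventricular nucleus and Pmch in the lateral hypothalamus.

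Values were the authors' log2 expression values. Array medians were 4.81 to 5.07 in batch B, against 3.52 to 3.62 in batch A, so each comparison had the batch as a term. The Gapdh 3′ probe set exceeded the 5′ one by 0.887 to 1.07 on 11 arrays of batch B and by 2.02 to 3.28 on the 12 arrays of batch A, but by 5.41 on pulsed dorsal replicate 4. That array also had the lowest median correlation with its own batch, 0.913, and pulsed central replicate 2 had the lowest of batch A, 0.955. Of 11 tested core and shell markers, 4 were higher and 3 lower in ventral than in dorsal SCN. Vip, a core peptide, was higher in ventral than in dorsal SCN (3.43 ± 0.298 on the log2 scale), and Avp, a shell peptide, was lower (-1.43 ± 0.249), with standard errors after ± and adjusted p-values of 9.97e-08 and 0.00074 by limma. Calb2 (1.26 ± 0.187), Drd1 and Grp were also higher, while Calb1 (-0.39 ± 0.099) and Rorb (-0.80 ± 0.124) were lower in ventral SCN. Without those 2 arrays, the number of members called was the same in each of the comparisons between regions, of light in each region and of the interaction.

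Promoter sequences from RefSeq (build GRCm38.p6) were at hand for 8 of the 9 members, all but Penk. Light raises cAMP- and calcium-dependent signalling in SCN cells, and the factor CREB binds the cAMP response element, so the 250 bases before each start were searched on both strands for the full element TGACGTCA and for its shorter core TGACG, or CGTCA on the opposite strand. The full element, which contains the core in both orientations, was in the Sst promoter, 48 to 41 bases before the start, and in 508 of 32851 promoters, or 1.55%. The core was in 5 of the 8 promoters, those of Sst, Tac1, Trh, Cck and Nmu, and in 17.8% of all promoters. Shown are the promoters of the members that had both a match and a call between regions, with the matches in capitals and each written 5′ to 3′ on the gene's own strand. They lie at chr16:23890845-23891094 (minus strand) for Sst, chr9:121495695-121495944 (minus strand) for Cck and chr6:92244651-92244900 (minus strand) for Trh.
Sst: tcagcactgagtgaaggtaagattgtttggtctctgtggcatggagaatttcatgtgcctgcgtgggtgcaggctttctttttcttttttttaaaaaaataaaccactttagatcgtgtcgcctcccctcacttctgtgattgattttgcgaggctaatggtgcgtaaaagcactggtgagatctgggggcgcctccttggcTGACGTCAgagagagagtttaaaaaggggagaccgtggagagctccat
Cck: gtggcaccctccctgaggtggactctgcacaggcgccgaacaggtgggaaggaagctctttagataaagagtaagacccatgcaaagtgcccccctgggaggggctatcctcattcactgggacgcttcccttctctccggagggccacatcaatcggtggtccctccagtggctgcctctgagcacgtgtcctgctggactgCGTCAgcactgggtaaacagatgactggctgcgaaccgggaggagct
Trh: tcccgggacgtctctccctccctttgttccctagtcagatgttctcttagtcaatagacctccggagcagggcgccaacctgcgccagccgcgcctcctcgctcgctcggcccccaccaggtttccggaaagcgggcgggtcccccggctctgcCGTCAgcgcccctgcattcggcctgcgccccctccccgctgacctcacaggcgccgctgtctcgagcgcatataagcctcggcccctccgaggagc
In Cck the core was 47 to 43 bases and in Trh 96 to 92 bases before the start. These letter matches are a description of the sequence, and binding was not measured.

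The first question was where in the nucleus each precursor is found. Of the 9 members, 7 differed between at least 1 pair of regions and 2, Tac1 and Nmu, did not. Sst, Penk, Tac2 and Gal had their highest mean in the dorsal SCN. Cck and Pmch had theirs in the ventral SCN, and Trh was lower in central SCN than in the others, which were not told apart. Dorsal and central Tac2 were not told apart, and neither were ventral and dorsal Pmch. Each comparison set 8 against 8 arrays of both treatments in 1 limma fit over all 24 arrays, with a call at an adjusted p under 0.05 over 13494 genes. Between ventral and central SCN, 5 of 9 members were called, 3 higher and 2 lower, where 5.2% of all tested genes were. Between ventral and dorsal SCN, 5 of 9 were called, 1 higher and 4 lower, where 4.61% of all genes were. Between central and dorsal SCN, 5 of 9 were called, all of them lower, where 7.11% of all genes were. The median difference of the 9 members was 0.21, -0.52 and -0.73 in these comparisons, and that of all tested genes 0.05, 0.01 and -0.05. All 9 members passed the filter on low values (a log2 value over 4 on at least 4 arrays). The amount of RNA per cell and the number of cells that express a gene cannot be told apart in such pieces of tissue.

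**Figure D1:**
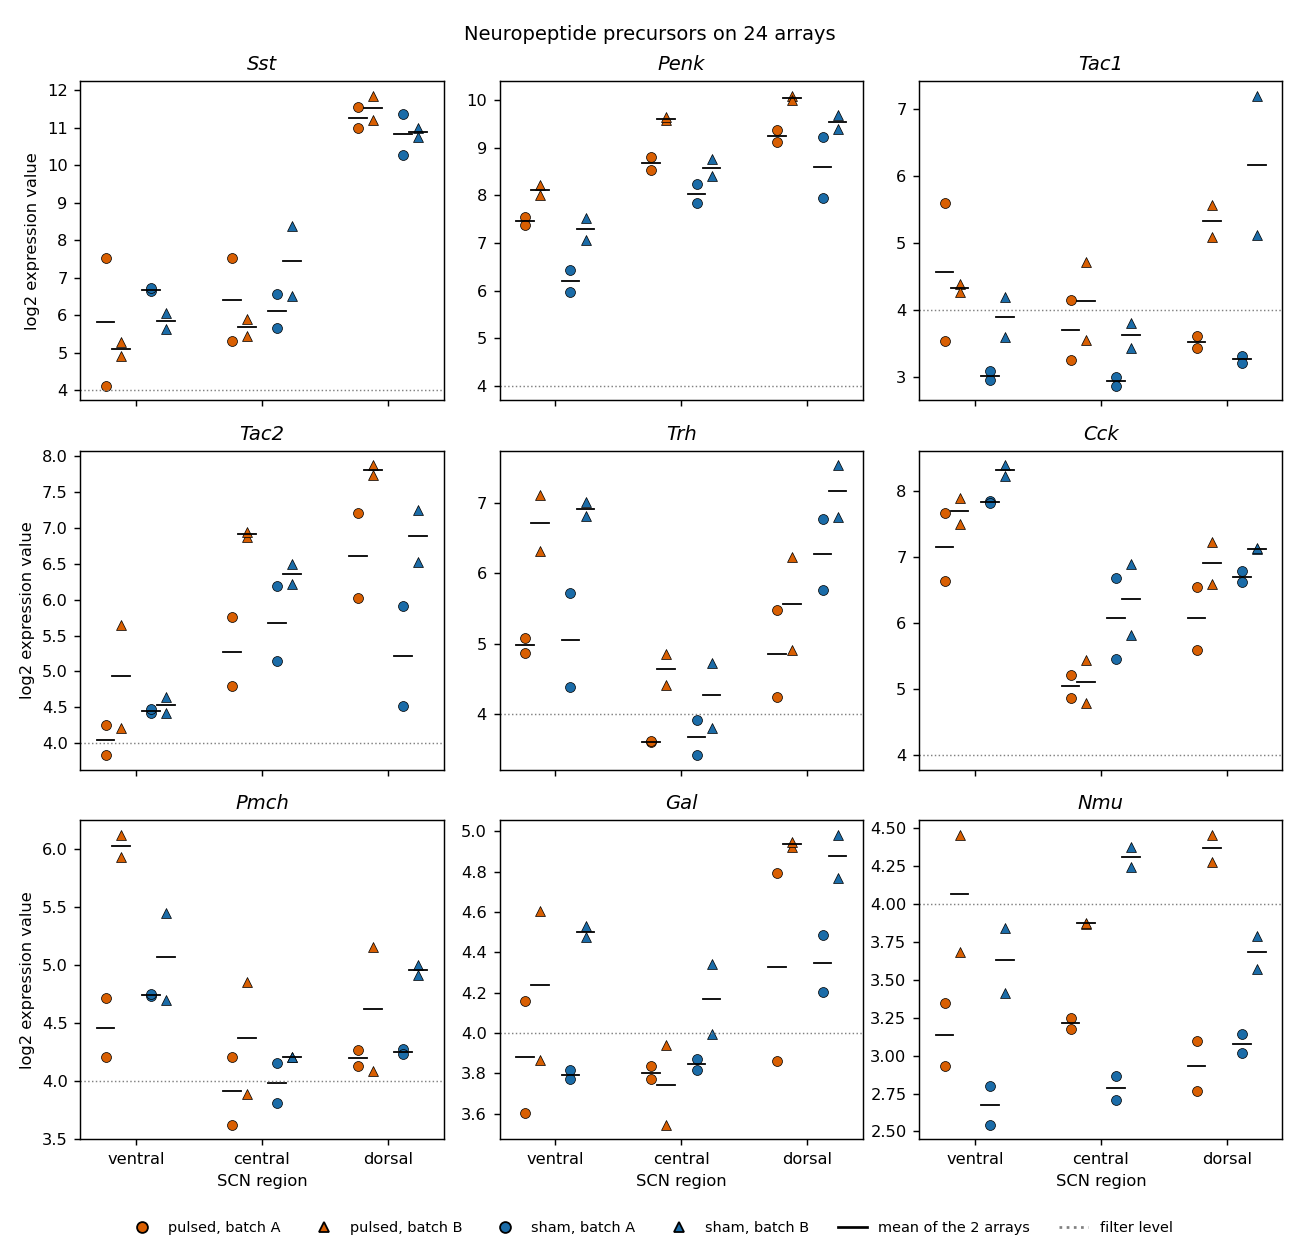
Log2 expression values of the 9 precursors (vertical axes, each with its own range) on each of the 24 arrays by SCN region (horizontal axis), with pulsed arrays in orange left of sham arrays in blue, circles for batch A, triangles for batch B and a line at the mean of the 2 arrays. The dorsal Sst values, 10.29 to 11.86, lie above all ventral and central ones, and the Nmu values split by batch.

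Somatostatin mRNA had the widest regional difference. Sst values in the ventral SCN were 7.52, 4.12, 5.29 and 4.92 on pulsed arrays and 6.64, 6.72, 6.06 and 5.63 on sham arrays. In the central SCN they were 7.51, 5.32, 5.91 and 5.44 on pulsed and 6.56, 5.66, 8.37 and 6.52 on sham arrays. In the dorsal SCN they were 11.54, 10.99, 11.20 and 11.86 on pulsed and 11.37, 10.29, 10.76 and 10.99 on sham arrays. Every dorsal array lay above every ventral and central array. The ventral minus dorsal difference was -5.26 ± 0.423 on the log2 scale (38.4-fold lower, adjusted p 4.02e-08) and the central minus dorsal one -4.71 ± 0.423 (26.2-fold lower, adjusted p 1.44e-07). Ventral and central SCN overlapped and were not told apart (-0.55 ± 0.423, 95% interval -1.43 to 0.33, adjusted p 0.765). Within groups Sst was among the most variable genes, with a residual SD of 0.943 that exceeded 99.5% of the tested genes. The ventral and central values, between 4.12 and 8.37, carried that spread.

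The enkephalin precursor formed a gradient that rose towards the dorsal SCN. Penk values in the ventral SCN were 7.54, 7.38, 8.21 and 8.0 on pulsed and 6.43, 5.98, 7.52 and 7.05 on sham arrays. Central values were 8.81, 8.53, 9.57 and 9.65 on pulsed and 8.23, 7.83, 8.77 and 8.40 on sham arrays. Dorsal values were 9.37, 9.11, 10.10 and 9.998 on pulsed and 9.22, 7.95, 9.39 and 9.68 on sham arrays. Within each batch all ventral arrays lay below all central and all dorsal ones, while central and dorsal arrays overlapped. Ventral Penk was 2.75-fold lower than central (-1.46 ± 0.150, adjusted p 1.06e-06) and 4.25-fold lower than dorsal (-2.09 ± 0.150, adjusted p 1.17e-08). Central Penk was 1.55-fold lower than dorsal (-0.63 ± 0.150, adjusted p 0.0098). That last step was -0.50 on pulsed arrays alone (adjusted p 0.226) and -0.75 on sham arrays alone (adjusted p 0.0754).

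The neurokinin B precursor was low in the ventral SCN and higher in the other regions. Tac2 values in the ventral SCN were 3.83, 4.24, 4.21 and 5.65 on pulsed and 4.42, 4.48, 4.42 and 4.64 on sham arrays. Central values were 5.76, 4.79, 6.88 and 6.95 on pulsed and 6.19, 5.15, 6.23 and 6.50 on sham arrays. Dorsal values were 7.22, 6.02, 7.88 and 7.74 on pulsed and 5.91, 4.51, 6.52 and 7.25 on sham arrays. In both batches each ventral array was below each central and dorsal array of that batch. Ventral values lay near the filter level of 4, at 3.83 to 4.48 in batch A and 4.21 to 5.65 in batch B. The fold differences from ventral SCN are thus set against a low level. Ventral Tac2 was 2.97-fold lower than central (-1.57 ± 0.272, adjusted p 0.000656) and 4.42-fold lower than dorsal (-2.14 ± 0.272, adjusted p 1.77e-05). Central and dorsal SCN differed by -0.57 ± 0.272, which did not pass (95% interval -1.14 to -0.01, adjusted p 0.248). That difference was -1.12 on pulsed arrays alone (adjusted p 0.126) and -0.03 on sham arrays alone (adjusted p 0.997). Over the batch-centred arrays Penk and Tac2 had a Pearson r of 0.83, the highest of the member pairs, and 0.404 once the group means were removed (n = 24 arrays, which share regions and batches).

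Galanin mRNA was near the filter level and slightly higher in the dorsal SCN. Gal exceeded a log2 value of 4 on 12 of 24 arrays. In batch A its ventral values ran between 3.61 and 4.16, its central values between 3.77 and 3.87 and its dorsal values between 3.86 and 4.79. In batch B the ranges were 3.87 to 4.61 in ventral, 3.54 to 4.34 in central and 4.77 to 4.98 in dorsal SCN. Dorsal arrays lay above the others in batch B and overlapped with them in batch A. Ventral Gal was 1.43-fold lower than dorsal (-0.52 ± 0.147, adjusted p 0.0431) and central Gal 1.66-fold lower (-0.73 ± 0.147, adjusted p 0.00232). The ventral call was lost when any 1 of 16 of the 24 arrays was left out, with adjusted p-values between 0.0519 and 0.119, and on pulsed or sham arrays alone it was not called. The central call was kept without each single array and on pulsed arrays alone (-0.86, adjusted p 0.0221), but not on sham arrays alone (-0.60, adjusted p 0.188) or within batch A (adjusted p 0.416) or batch B (0.0509). Ventral and central SCN differed by 0.21 ± 0.147 (adjusted p 0.691).

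Cholecystokinin mRNA ran the other way, highest in the ventral and lowest in the central SCN. Cck values in the ventral SCN were 7.66, 6.63, 7.50 and 7.88 on pulsed and 7.85, 7.82, 8.39 and 8.23 on sham arrays. Central values were 5.21, 4.87, 4.79 and 5.44 on pulsed and 5.45, 6.69, 6.90 and 5.82 on sham arrays. Dorsal values were 6.55, 5.59, 6.59 and 7.23 on pulsed and 6.61, 6.78, 7.12 and 7.13 on sham arrays. In batch B all ventral arrays lay above all central and dorsal ones, while in batch A pulsed ventral replicate 2 overlapped with both. Ventral Cck was higher than central by 2.10 ± 0.205 (4.28-fold, adjusted p 6.97e-07) and higher than dorsal by 1.04 ± 0.205 (2.06-fold, adjusted p 0.00252). Central Cck was 2.08-fold lower than dorsal (-1.05 ± 0.205, adjusted p 0.00184). That difference was -1.41 on pulsed arrays alone (adjusted p 0.00683) and -0.70 on sham arrays alone (adjusted p 0.355). The ventral to dorsal one was 0.93 on pulsed arrays alone (adjusted p 0.115) and 1.16 on sham arrays alone (adjusted p 0.0414).

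The thyrotropin-releasing hormone precursor was lowest in the central SCN. Trh values in the ventral SCN were 5.08, 4.87, 6.32 and 7.11 on pulsed and 5.72, 4.38, 6.81 and 7.01 on sham arrays. Central values were 3.60, 3.62, 4.86 and 4.41 on pulsed and 3.92, 3.41, 4.73 and 3.81 on sham arrays. Dorsal values were 4.24, 5.48, 4.91 and 6.23 on pulsed and 5.77, 6.77, 7.54 and 6.81 on sham arrays. Within each batch every central array lay below every ventral and dorsal array. Central values were low, 3.41 to 3.92 in batch A, under the filter level of 4, and 3.81 to 4.86 in batch B. Array medians were 3.52 to 3.62 in batch A and 4.81 to 5.07 in batch B. The fold differences from central SCN are thus set against a level near the array median. Ventral Trh was higher than central by 1.87 ± 0.266 (3.65-fold, adjusted p 7.38e-05) and central Trh was 3.79-fold lower than dorsal (-1.92 ± 0.266, adjusted p 4.64e-05). Ventral and dorsal SCN differed by -0.06 ± 0.266 (95% interval -0.61 to 0.50, adjusted p 0.943), the mean of 0.63 on pulsed arrays alone (adjusted p 0.437) and -0.74 on sham arrays alone (adjusted p 0.678). The central to dorsal difference was -1.09 on pulsed arrays alone (adjusted p 0.126) and -2.76 on sham arrays alone (adjusted p 0.000115).

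The melanin-concentrating hormone precursor was higher in the ventral than in the central SCN. Pmch ran between 4.20 and 4.75 in ventral, 3.62 and 4.21 in central and 4.13 and 4.27 in dorsal SCN in batch A. In batch B it ran between 4.70 and 6.13 in ventral, 3.89 and 4.85 in central and 4.09 and 5.16 in dorsal SCN. The regions overlapped in both batches. The ventral level exceeded the central one by 0.96 ± 0.197 (1.94-fold, adjusted p 0.00333), by 1.10 on pulsed arrays alone (adjusted p 0.0351) and by 0.81 on sham arrays alone (adjusted p 0.251). Within batch A (0.65, adjusted p 0.139) and within batch B (1.27, adjusted p 0.0958) the difference was not called. Ventral over dorsal SCN was 0.57 ± 0.197 (adjusted p 0.126) and central minus dorsal was -0.39 ± 0.197 (adjusted p 0.286), so the dorsal SCN was told apart from neither. Without pulsed ventral replicate 1 the ventral over dorsal difference passed, at 0.70 (adjusted p 0.0337).

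Substance P and neuromedin U precursors gave no regional call. Tac1 exceeded a log2 value of 4 on 2 of the 12 arrays of batch A and 8 of the 12 of batch B, and Nmu on 0 and 5. In batch B the dorsal Tac1 values, 5.08 to 7.20, lay above the ventral ones, 3.59 to 4.39, and the central ones, 3.43 to 4.71. In batch A the dorsal values, 3.21 to 3.62, overlapped with the ventral ones, 2.95 to 5.60, and the central ones, 2.87 to 4.14. The batches thus disagreed, and over both the ventral minus dorsal difference was -0.61 ± 0.377 (adjusted p 0.474) and the central minus dorsal one -0.97 ± 0.377 (adjusted p 0.138). The residual SD of Tac1, 0.838, exceeded 99.1% of the tested genes. Nmu lay below the array median on all 24 arrays, and its differences between regions ran between -0.17 and 0.03, each ± 0.144, with adjusted p-values between 0.690 and 0.934. With array weights, an alternative fit, Tac1 was called in central minus dorsal SCN (-1.19, adjusted p 0.0161).

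**Figure D2:**
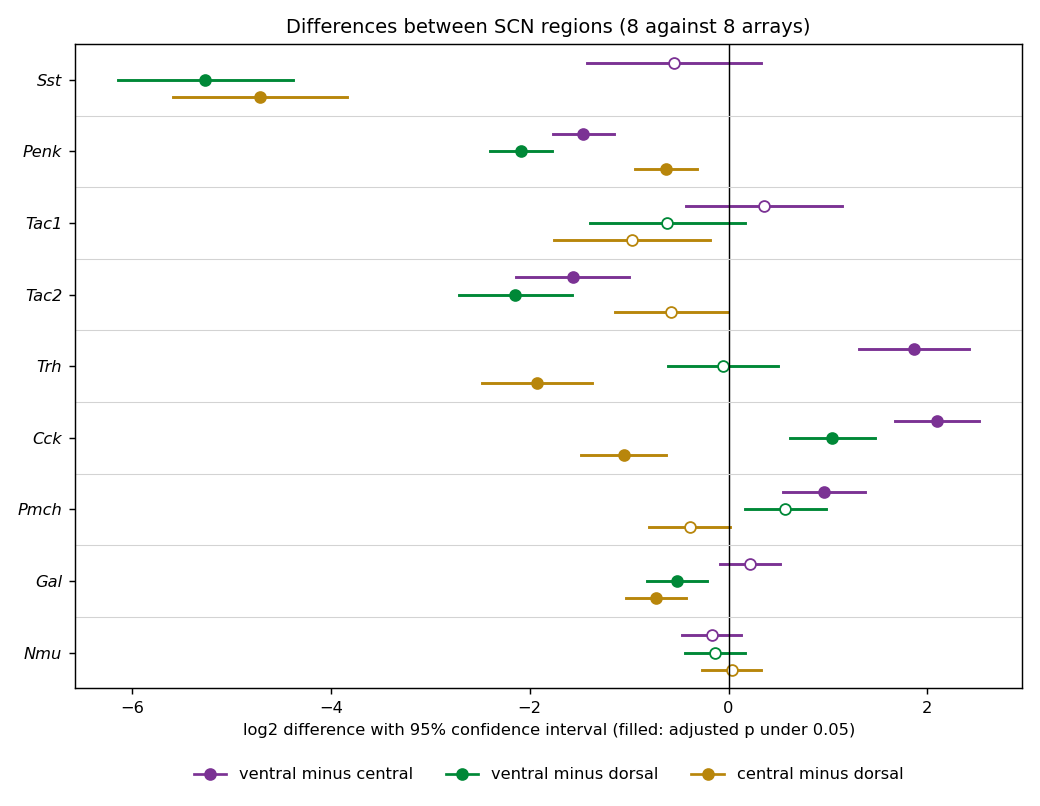
Differences between SCN regions for each precursor (horizontal axis, log2 with 95% confidence interval, 8 against 8 arrays), with filled points where the adjusted p is under 0.05. Sst lies farthest from 0, at -5.26 for ventral minus dorsal, and Cck and Trh lie on the other side of 0 from Penk and Tac2 in ventral minus central.

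Markers of other cells moved with these regional differences. All 7 oligodendrocyte markers tested were higher in ventral than in central SCN (median 2.64, including Mbp, Mog and Mag), 5 of 7 were higher in ventral than in dorsal SCN (median 1.00) and 6 of 7 were lower in central than in dorsal SCN (median -1.44). Their mean, minus the batch mean, lay between 0.82 and 1.46 in ventral, -1.76 and -0.84 in central and -0.20 and 0.24 in dorsal SCN. Over 24 batch-centred arrays it went with Cck (Pearson r 0.847), Pmch (0.696) and Trh (0.672), and against Penk (-0.535) and Tac2 (-0.497), while Sst had an r of -0.004. With the group means removed, these values were 0.305, -0.020, 0.096, 0.325, 0.408 and 0.684 in the same order of genes. Summed over 7 oligodendrocyte genes, the level in batch B was 13.33 to 13.54 on pulsed and 13.32 to 13.54 on sham ventral arrays, 11.44 to 11.59 on pulsed and 11.20 to 11.70 on sham central arrays, and 12.54 to 13.22 on pulsed and 12.55 to 12.65 on sham dorsal arrays (log2 of the sum). In batch A it was 12.33 to 12.83 on pulsed and 12.38 to 12.89 on sham ventral arrays, 9.39 to 10.61 on pulsed and 10.24 to 10.71 on sham central arrays, and 11.34 to 11.68 on pulsed and 11.18 to 11.61 on sham dorsal arrays. The regions did not overlap in either batch's ventral and central arrays, and pulsed and sham arrays overlapped in each region. Of 8 astrocyte markers, 5 were higher in ventral than in central SCN, and their mean had an r of 0.730 with Pmch and 0.641 with Cck, against 0.263 and -0.155 with the group means removed. Of 8 markers of endothelial and mural cells, 3 (Cldn5, Rgs5 and Tek) were higher in ventral than in central SCN and lower in central than in dorsal SCN. Ccdc153, 1 of 4 tested ependymal markers, was lower in ventral (-1.59 ± 0.301, adjusted p 0.0018) and in central SCN (-1.97 ± 0.301, adjusted p 0.000156) than in dorsal SCN. Of 7 microglia markers, Tyrobp was higher in ventral than in central SCN, and Tyrobp and Csf1r were lower in central than in dorsal SCN. The microglia mean had an r of 0.686 with Gal and 0.662 with Trh, and of 0.453 and 0.475 with the group means removed. Summed over 8 microglia genes, the level was 9.64 and 12.29 on the pulsed dorsal arrays of batch B. On the sham dorsal arrays of that batch it was 9.89 and 10.08, so 1 array stood apart in this list. The part of these cells in the differences of Sst, Gal, Cck, Pmch, Trh, Penk and Tac2 was not tested.

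**Figure D3:**
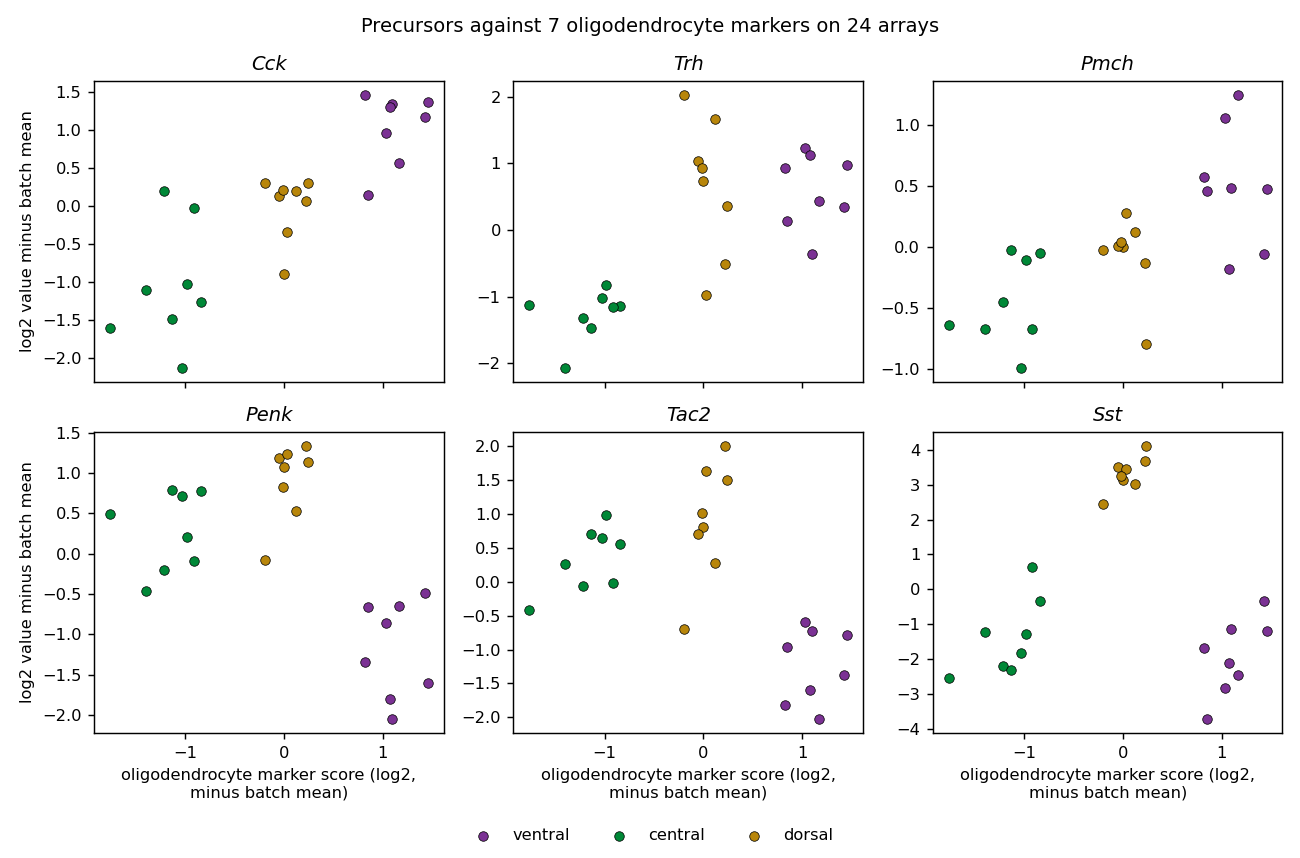
Log2 values of 6 precursors minus their batch mean (vertical axes) against the mean of 7 oligodendrocyte markers minus its batch mean (horizontal axes) on 24 arrays, coloured by region. The regions form separate clusters along the horizontal axis, ventral between 0.82 and 1.46 and central between -1.76 and -0.84.

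Neurons of neighbouring nuclei were read from 10 tested genes of a list of 17. Of these, Cartpt, Otp and Slc6a3 were higher in ventral than in central SCN, and Cartpt, Otp, Oxt and Slc17a6 were lower in central than in dorsal SCN. Slc6a3 was higher and Oxt lower in ventral than in dorsal SCN. Their batch-centred mean lay between -0.16 and 0.39 in ventral, -0.82 and -0.11 in central and -0.23 and 0.63 in dorsal SCN. Over the 24 arrays it went with Trh (r 0.816, and 0.482 with group means removed) and with Gal (0.752 and 0.600). Its r was 0.574 with Cck (0.335 with group means removed) and 0.451 with Sst (-0.119). With Tac1 it was 0.405, with Pmch 0.338, with Penk -0.036, with Tac2 -0.071 and with Nmu -0.029. The mean of 11 genes enriched in the SCN had an r of -0.688 with Trh and -0.563 with Gal. With the group means removed these were -0.383 and -0.350. For the other members its r lay between -0.437 (Tac1) and 0.145 (Nmu). Oxt, Pomc and Esr1 exceeded a log2 value of 4 on all 24 arrays, Slc6a3 on 23 and Otp on 22. Hcrt, whose neurons lie beside Pmch neurons in the lateral hypothalamus, exceeded it on 2 arrays, Sim1 on 2, Th on 1 and Nr5a1 on 0, and these 4 were not tested. The part of neighbouring tissue in the levels of the members was not tested.

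The second question was how the precursors stood after a light pulse. Penk rose in the ventral SCN, and no other member was called in any region. In the ventral SCN 1 of 9 members was called, where 0.719% of all tested genes were. In the central SCN 0 of 9 were called by limma (2 at an unadjusted p under 0.05), where 0.385% of all genes were, and in the dorsal SCN 0 of 9 (3 at an unadjusted p under 0.05), where 0.178% were. The median light effect of the 9 members was -0.01 in ventral, 0.05 in central and 0.02 in dorsal SCN, and that of all tested genes -0.03, -0.08 and -0.03.

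Ventral Penk was 7.54, 7.38, 8.21 and 8.0 on pulsed arrays, against 6.43, 5.98, 7.52 and 7.05 on sham arrays. In each batch both pulsed arrays lay above both sham arrays, by 1.26 on average in batch A and 0.82 in batch B. The difference was 1.04 ± 0.212 (2.05-fold, 95% interval 0.60 to 1.48, adjusted p 0.0173). The call was lost without pulsed ventral replicate 1 (0.98, adjusted p 0.0604), 2 (1.04, 0.0675) or 3 (1.03, 0.0568) and without sham ventral replicate 2 (0.91, 0.0907) or 4 (1.00, 0.0722). It was also lost within either batch, with 2 against 2 arrays (adjusted p 0.627 in batch A and 0.967 in batch B). Of the lists of other cells, 1 of 8 astrocyte markers (Gfap, 1.28 ± 0.263) and 2 of 4 tested markers of ependymal cells and tanycytes (Vim, 1.6 ± 0.301, and Dio2, 1.27 ± 0.257) also rose with light in the ventral SCN, while 0 of 7 oligodendrocyte, 7 microglia, 8 endothelial and mural, 8 neuron and 10 neighbouring hypothalamic markers were called there. Their part in the Penk result was not tested.

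Penk was also above sham on pulsed arrays of the other regions, without passing the test. In the central SCN the difference was 0.83 ± 0.212 (adjusted p 0.106), and the pulsed arrays lay above the sham arrays in both batches. It passed without sham dorsal replicate 2 (0.83, adjusted p 0.0367), an array outside the central comparison, and with the replicate number in place of the batch term (adjusted p 0.0236). In all, 4 of 36 alternative fits passed. Without pulsed dorsal replicate 4 and pulsed central replicate 2 it did not pass (0.90, adjusted p 0.0667). The highest adjusted p with 1 array left out was 0.324, without sham central replicate 4. In the dorsal SCN it was 0.58 ± 0.212 (adjusted p 0.424), and the arrays of batch A overlapped. Averaged over the regions (8 composite values, 4 against 4), Penk was 0.82 ± 0.166 above sham, with an adjusted p of 0.0876. Each composite joined the regions by replicate number, and the labels do not state that such arrays share an animal. Both pulsed composites lay above both sham composites in each batch. In that comparison 0 of 9 members were called by limma (3 at an unadjusted p under 0.05), where 0.408% of all genes were. The interaction of light and region gave Penk an F of 1.16 (adjusted p 1.00), so a difference of its light effect between regions was not shown. That test called 0 of 9 members (1 at an unadjusted p under 0.05) and 0.00741% of all genes.

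**Figure D4:**
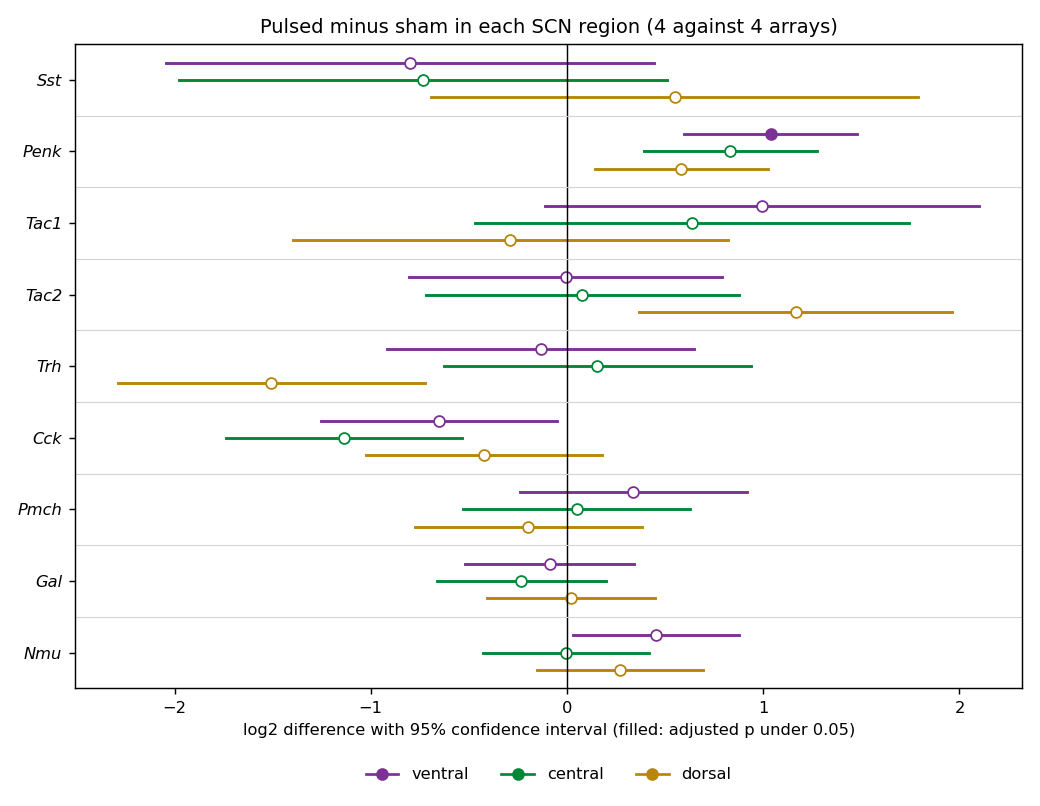
Pulsed minus sham differences of each precursor in ventral, central and dorsal SCN (horizontal axis, log2 with 95% confidence interval, 4 against 4 arrays), with a filled point where the adjusted p is under 0.05. Ventral Penk, at 1.04, is the filled one, and central Cck (-1.14) and dorsal Trh (-1.51) lie below 0 without passing.

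Cck was below sham on pulsed arrays in all regions, and no such difference passed. In the central SCN it was 5.21, 4.87, 4.79 and 5.44 on pulsed arrays, against 5.45, 6.69, 6.90 and 5.82 on sham arrays. Both pulsed arrays lay below both sham arrays in each batch. The difference was -1.14 ± 0.290 (2.20-fold lower, 95% interval -1.74 to -0.53, adjusted p 0.107). Without pulsed dorsal replicate 4, the array with the high Gapdh ratio, the central difference was the same and passed (-1.14, adjusted p 0.0420). That dorsal array is in neither central group and enters the test only through the fit shared by all groups. With pulsed central replicate 2 also left out, the central difference did not pass (-1.13, adjusted p 0.0927). It did not pass without sham central replicate 2 either (adjusted p 0.443), and 2 of 36 alternative fits passed. The ventral difference was -0.65 ± 0.290 (adjusted p 0.651) and the dorsal one -0.42 ± 0.290 (adjusted p 0.564). Averaged over the regions it was -0.74 ± 0.210 (adjusted p 0.257), and both pulsed composites lay below both sham composites in each batch.

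Trh and Tac2 had their largest light differences in the dorsal SCN, in opposite directions. Dorsal Trh was 4.24, 5.48, 4.91 and 6.23 on pulsed arrays, against 5.77, 6.77, 7.54 and 6.81 on sham arrays, and the pulsed arrays lay below the sham arrays in each batch. The difference of -1.51 ± 0.376 (2.84-fold lower, adjusted p 0.142) was not called, and was -1.67 without pulsed dorsal replicate 4 (adjusted p 0.0883). In ventral and central SCN the Trh difference was -0.13 ± 0.376 and 0.16 ± 0.376. The test of light by region gave Trh an F of 5.57 (p 0.0112, adjusted p 1.00). The summed level of 14 genes of neighbouring hypothalamic neurons was also lower on pulsed dorsal arrays in batch B, 9.33 to 9.88, against 10.55 to 10.64 on sham dorsal arrays. In batch A it was 8.43 to 9.50 on pulsed and 8.74 to 9.71 on sham dorsal arrays, which overlapped. Of the 10 tested genes of that list, 0 were called for light in dorsal SCN. Their median was -0.05, against -0.03 for all tested genes. The smallest p among them was that of Cartpt, which was higher on pulsed arrays (1.13 ± 0.339, adjusted p 0.283). The part of neighbouring tissue in the Trh values was not tested.

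Dorsal Tac2 was 7.22, 6.02, 7.88 and 7.74 on pulsed arrays, against 5.91, 4.51, 6.52 and 7.25 on sham arrays. The pulsed arrays lay above the sham arrays in each batch, by 1.41 in batch A and 0.92 in batch B. The difference of 1.16 ± 0.385 (2.24-fold, adjusted p 0.349) was not called and was 1.16 without pulsed dorsal replicate 4. In ventral and central SCN it was -0.01 ± 0.385 and 0.08 ± 0.385.

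The other 5 members had light differences that did not pass in any region. Sst was -0.80 ± 0.598 in ventral, -0.73 ± 0.598 in central and 0.55 ± 0.598 in dorsal SCN. Its 95% intervals, -2.04 to 0.44, -1.98 to 0.51 and -0.69 to 1.79, were the widest of the 9 members. Tac1 was 0.99 ± 0.534 in ventral SCN (adjusted p 0.855), where both pulsed arrays of each batch lay above both sham arrays. The difference was 1.55 in batch A, which holds the high value of 5.60 on pulsed ventral replicate 2, and 0.44 in batch B. Leaving out 1 array gave 0.40 to 1.25, and many Tac1 values lay under the filter level of 4. Nmu was 0.45 ± 0.204 in ventral SCN (adjusted p 0.667). Pmch differences ran between -0.20 and 0.34 and Gal differences between -0.23 and 0.02, and the lowest 95% interval bounds were -0.77 for Pmch and -0.66 for Gal.

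Of the genes that encode receptors of these peptides, 9 of 21 were tested and 3 differed between regions. Oprk1, an opioid receptor gene, was lower in ventral than in central SCN (-0.84 ± 0.245, adjusted p 0.0473). Sstr2, a somatostatin receptor gene, was lower in ventral than in dorsal SCN (-0.73 ± 0.145, adjusted p 0.00273) and lower in central than in dorsal SCN (-0.81 ± 0.145, adjusted p 0.00081), and like Sst it had its highest mean in the dorsal SCN. Cckar, a cholecystokinin receptor gene, was lower in ventral than in dorsal SCN (-1.16 ± 0.260, adjusted p 0.00791) and lower in central than in dorsal SCN (-1.91 ± 0.260, adjusted p 3.65e-05). After light, 0 of the 9 receptor genes were called in any region. The smallest p was that of dorsal Cckar, at 1.08 ± 0.367 (adjusted p 0.373).

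Few genes of the enzymes that make or remove the peptides passed a test. Of 10 tested genes of prohormone processing, 1 rose with light in the ventral and central SCN. This was Pcsk1, the prohormone convertase that cuts many precursors, by 1.90 ± 0.279 in ventral (3.72-fold, adjusted p 0.000775) and 1.32 ± 0.279 in central SCN (2.50-fold, adjusted p 0.0338). Pcsk1 was also higher in ventral than in dorsal SCN by 1.16 ± 0.197 (adjusted p 0.000595), and no other processing gene differed between regions. Of 8 tested peptidase genes, Dpp4, a membrane dipeptidyl peptidase, was higher in ventral than in dorsal SCN by 0.98 ± 0.208 (adjusted p 0.00498), and 0 were called after light. Among them Pgpep1, which removes the pyroglutamate that caps thyrotropin-releasing hormone, had the smallest p in each region, with differences of -0.86, -0.95 and -0.89 (each ± 0.353, adjusted p between 0.411 and 0.582).

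Of 18 tested genes of other peptide precursors, 8 differed between central and dorsal SCN, 2 higher and 6 lower. The 4 with the smallest p were Grp and Vip, higher in central SCN, and Avp and Adcyap1, lower there. Between ventral and dorsal SCN, Vip and Grp were higher and Avp and Oxt lower, and between ventral and central SCN, Cartpt was higher and Grp lower. With light, Prok2, a clock output peptide, rose in ventral and central SCN by 2.61 ± 0.557 (adjusted p 0.0235) and 2.62 ± 0.557 (adjusted p 0.0345), and 17 of the 18 did not pass in any region. Rgs16, a G protein regulator used as a region marker, was called in none of the 6 comparisons of light or region.

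For each member with a regional call, the genes with the most similar pattern were ranked by Pearson r over the 24 batch-centred arrays, which share regions and treatments. Sst went with Syt1 (0.932), the synaptotagmin of synaptic vesicles, which was itself lower in ventral than in dorsal SCN (-2.04 ± 0.118) and lower in central than in dorsal SCN (-1.86 ± 0.118), and with Ildr2 (0.911) and Glra2 (0.902). Syt1 was the only 1 of 8 neuron markers called between regions. The mean of these 8 markers, Syt1 included, had an r of 0.823 with Sst (0.401 with the group means removed). With Tac2 it was 0.618 (0.707), with Gal 0.488 (-0.385) and with Penk 0.460 (0.385). With Trh, Cck and Pmch it was 0.267 (-0.197), 0.043 (-0.007) and -0.109 (0.217). The part of neuron content in the regional differences of the members was not tested. Penk went with Chodl (0.911), Fndc3b (0.880) and Ap1s2 (0.865), and Tac2 with Vwc2l (0.882), Adgrg2 (0.866) and Adgrl2 (0.841). Cck went with Cxcl12 (0.927), Tspan2 (0.911) and Nfix (0.871), and Pmch with Cmtm5 (0.801), Pdk4 (0.788) and Erbb3 (0.784). Trh went with Ptprb (0.847), Olig1 (0.807), an oligodendrocyte marker, and Cntnap4 (0.802), and Gal with Bcl11b (0.857), Dgkk (0.83) and Lancl3 (0.817).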

How the data were processed

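RNA from laser-dissected SCN subregions was measured on 24 Affymetrix arrays, grouped by the treatment, region, replicate and batch in the labels. The deposited table holds log2 values computed by the authors, 1 per array for 45101 probe sets. MAS5, R 3.0.2 and GCRMA 2.32.0 are named, per the submitters' processing notes, with no role for each, and the sources used here give no genome build. Background correction can compress low values and batchwise scaling can shift batches, and whether either was applied here is not stated. Levels were compared within a gene and with a batch term. Probe sets with 1 symbol (34945) gave 18193 genes, and the 13494 with a log2 value over 4 on at least 4 arrays were tested.

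Tests used lmFit and eBayes of limma 3.58.1, run in R 4.3.3 (6 group means and batch on all 24 arrays, two-sided, Benjamini-Hochberg over 13494 genes, 17 residual and 4.70 prior degrees of freedom), and a gene with an adjusted p under 0.05 was called. Errors after ± are standard errors. The averaged light effect was added after seeing the data. No 2 arrays held identical values. P-values measure only the spread between these samples, which may share animals, and the number of arrays limits the precision.

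All 9 members were named in every comparison. For each list described, called genes and the 1 with the smallest p were named. Protein sequences were not used here. Members and the 13 gene lists were chosen with earlier results of these data known. Alternatives were a fit without the batch term, within each batch, other normalization, filters and weights, the replicate block, sham or pulsed arrays alone, and leaving out each array.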

Additional observations from a re-analysis of the deposited data

Results flagged for a closer look

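In 54 groups of 4 arrays (9 members in 6 groups, adjusted for the batch term), 4 held an array farther from the others than Dixon's 95% value allows, and chance alone is set to flag about 1 in 20 groups. Tac1 was high on pulsed ventral replicate 2, at 5.60 on the log2 scale. Tac2 was low on pulsed central replicate 2, at 4.79, an array that also had the lowest correlation with its batch in batch A. Trh was low on sham ventral replicate 2, at 4.38. Pmch was low on sham ventral replicate 4, at 4.70.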

How the results depend on the processing

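Low signal limits Tac1, Gal, Nmu and Pmch, which lay near the filter on many arrays, and 4 arrays a group limit the light effects. It also limits Trh in central SCN and Tac2 in ventral SCN, so the size of their regional differences is uncertain. All 603 refits of the 16 called results kept their direction, 543 passed the threshold, and 4 results (Sst in both dorsal comparisons, Penk in ventral minus dorsal and Cck in ventral minus central SCN) passed in each. Of 1511 refits of the 47 results not called, 14 passed. The cause of each change below was not tested, apart from the fewer arrays in fits within a batch or treatment.

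Without the batch term the members called were 0 for light in ventral SCN, against 1 with it, and 1 in ventral minus central, 2 in ventral minus dorsal and 1 in central minus dorsal SCN, against 5 each. Within batch A they were 0, 2, 2 and 2 in the same order. Within batch B they were 0 for light in ventral SCN, 3 in ventral minus dorsal and 2 in central minus dorsal SCN. With pulsed arrays only they were 3 in ventral minus dorsal and 3 in central minus dorsal SCN, and with sham arrays only 2 in central minus dorsal SCN. Quantile normalization gave 1 (Penk) for light in central SCN (adjusted p 0.0231) and 1 (Penk) for light averaged over the regions (0.0418), against 0. Array weights gave 2 for light in central SCN (Penk 0.0164, Cck 0.0109) and 2 in dorsal SCN (Tac2 0.0347, Trh 0.000983), and added Tac1 in central minus dorsal SCN (0.0161; 6 members called). One fit of all 24 arrays gave 2 for averaged light (Penk 0.000251, Cck 0.0121).

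Leaving out 1 array gave 0 to 1 members for light in ventral, 0 to 1 in central and 0 to 0 in dorsal SCN, and 5 to 5, 4 to 5 and 5 to 5 between regions.

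Residual correlations of same-numbered arrays had a median of 0.157 and ran between -0.210 and 0.565 (37 of 60 over 0.1), against a median of -0.268 for other numbers of the same batch (1 of 60 over 0.1), and 11 of 24 arrays correlated best with their own number. Same-numbered arrays thus deviated together more than other arrays of their batch, but the labels state no pairing. The main fits left the number out, so arrays that share a number may not be independent in them. With the replicate block in place of the batch, 1 member (Penk) was called for light in central SCN (adjusted p 0.0236) and 1 (Penk) for averaged light (0.0201), against 0 in both.

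The numbers of all genes called, and their range over all alternatives, were 97 (0 to 576), 52 (0 to 204) and 24 (0 to 353) for light in ventral, central and dorsal SCN, 702 (9 to 1390), 622 (4 to 1374) and 959 (7 to 1762) for ventral minus central, ventral minus dorsal and central minus dorsal SCN, 55 (0 to 549) for averaged light and 1 (0 to 2) for the interaction. Leaving out 1 array (for averaged light, 1 composite value) gave 47 to 207, 24 to 164, 12 to 41, 549 to 1092, 488 to 727, 714 to 1185, 13 to 57 and 0 to 2 in the same order.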
